A study of Mus musculus with 17 samples.

Results

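The bHLH-PAS transcription factors Arnt2, Arnt, Hif1a, Epas1, Ahr, Clock and Npas2 were examined in cells washed from the lungs of A/J mice, which develop lung tumours readily. Every Affymetrix Mouse430_2 probe set annotated to exactly 1 of these 7 genes was taken, which gave 22 of the 45037 probe sets that are not array controls, and the 7 genes were among 18193 named by such probe sets. The genes were selected on the signal of Arnt2, which was seen to be much higher after urethane on these same arrays, so its difference between the groups is described without a test. The study compared RNA of bronchoalveolar lavage cells from untreated A/J mice of matched age (control, 6 arrays) with that of A/J mice treated with urethane, a chemical carcinogen of the lung (urethane, 11 arrays). Neither group carried a named allele or transgene, and the dose, the time after urethane and the age in weeks are not given in the sources used here. Arrays are called by their label numbers, and control 6_13 has 2 of them, with no word on pooling. Whether every array stands for its own mouse is not stated either, so p-values reflect only the spread between these samples, some of it perhaps technical.

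Proteins of this family carry a basic helix-loop-helix region, which binds DNA, and a PAS region, through which they pair and sense signals, and they act as dimers. ARNT and its close relative ARNT2 are general partners. HIF-1alpha (Hif1a) and HIF-2alpha (Epas1) are degraded when oxygen is plentiful and pair with ARNT when it is scarce, and AHR pairs with ARNT after binding aromatic ligands or metabolites. CLOCK and NPAS2 instead pair with BMAL1 and drive the circadian loop. ARNT2 is best known from the brain and hypothalamus, where it partners SIM1 and NPAS4, and HIF-2alpha is abundant in lung endothelium and in alveolar macrophages. HIF, AHR and CLOCK are controlled largely at the level of protein, ligand or partner, which arrays of RNA do not measure.

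In mouse assembly GRCm38.p6 the genes lie at chr7:84246274-84411741 (Arnt2), chr3:95434367-95497240 (Arnt), chr12:73901324-73947554 (Hif1a), chr17:86753864-86833410 (Epas1), chr12:35497979-35534989 (Ahr), chr5:76209868-76305603 (Clock) and chr1:39193702-39363240 (Npas2). AHR with ARNT binds the core GCGTG, and HIF dimers bind this core as well as ACGTG. CLOCK with BMAL1 binds CACGTG, which contains the second HIF core on each strand. Windows of 250 bases before a gene start, from RefSeq, were searched on both strands for these letters. The core GCGTG was found in 28.2% and its HIF variant ACGTG in 16.6% of all 32851 such windows, 38.6% held at least one of them, and 6.02% held CACGTG. The window of Arnt2 is shown because the results turn on this gene, and those of Cited2, Hk2 and Flt1 as examples of genes whose RNA passed the test below. Capitals mark these letters on either strand, and each window is read 5′ to 3′ along its gene.
Arnt2, chr7:84410039-84410288, minus strand: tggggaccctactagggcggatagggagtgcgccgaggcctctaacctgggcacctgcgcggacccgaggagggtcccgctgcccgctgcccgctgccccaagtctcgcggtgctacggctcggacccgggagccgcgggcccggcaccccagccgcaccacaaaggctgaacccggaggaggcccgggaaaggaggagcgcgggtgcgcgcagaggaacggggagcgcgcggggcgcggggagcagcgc
Cited2, chr10:17722978-17723227, plus strand: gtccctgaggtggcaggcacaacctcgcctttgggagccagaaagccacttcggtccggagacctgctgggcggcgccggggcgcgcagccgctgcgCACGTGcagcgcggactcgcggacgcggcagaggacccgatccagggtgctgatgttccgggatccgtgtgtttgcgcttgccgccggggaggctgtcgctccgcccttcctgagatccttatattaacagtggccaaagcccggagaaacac
Hk2, chr6:82774455-82774704, minus strand: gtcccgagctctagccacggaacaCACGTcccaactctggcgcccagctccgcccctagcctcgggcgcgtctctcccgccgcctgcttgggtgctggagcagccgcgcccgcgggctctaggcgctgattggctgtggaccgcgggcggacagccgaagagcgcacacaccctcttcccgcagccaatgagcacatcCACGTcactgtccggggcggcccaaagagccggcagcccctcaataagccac
Flt1, chr5:147726012-147726261, minus strand: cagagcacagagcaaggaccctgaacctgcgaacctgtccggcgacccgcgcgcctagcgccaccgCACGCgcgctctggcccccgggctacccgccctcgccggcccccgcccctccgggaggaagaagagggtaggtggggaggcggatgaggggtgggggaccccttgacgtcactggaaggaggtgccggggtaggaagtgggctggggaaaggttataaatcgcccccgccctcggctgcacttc
The Arnt2 window, which lies inside the annotated span of the gene and before one of its starts, held 0 matches at a GC content of 75.6%. Cited2 held a single CACGTG, whose 2 overlapping HIF cores start 153 and 152 bases before the gene start. Hk2 held ACGTG at 2 places on the strand opposite to the gene, 226 and 52 bases before its start, and Flt1 held GCGTG at 184 bases, also on the opposite strand. Among the other members, the first listed window held 1 match in Arnt, 3 in Hif1a, 1 in Clock and 2 in Npas2. Of the Hif1a matches, those 135 and 134 bases before the start overlap in a single CACGTG. Tfrc, which also passed, has 2 windows, not printed, with 2 and 3 matches. Windows of Epas1, Ahr and Ndrg1 are not shown.

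All 17 arrays were scaled by the authors to a like mean, 500.003 after trimming 2% at each end, and values are MAS5 signals, a linear measure of probe set brightness. Array number, not read depth, limits precision. The arrays fell into 2 scan days that were also 2 chip lots: day 1 held 2 control and 5 urethane arrays, and day 2 held 4 control and 6 urethane arrays. The days also divided the label numbers, 3 to 14 on day 1 and 31 to 37 on day 2. Whether these were separate sets of animals is not stated, so scan day, chip lot and any such set cannot be told apart. Differences of Arnt2, Epas1, Ahr and some other genes are therefore also given within days. A probe set was tested if it exceeded the 40th percentile signal of its array on at least 6 arrays, as 29550 did. Tests used log2 of the signal plus 17.1, which understates folds of dim probe sets, and limma p-values adjusted over all 29550 with a threshold of 0.05. Alveolar macrophage markers were present: all 9 measured exceeded the 40th percentile on some array, with a summed signal of 158100 to 202000 in controls and 117400 to 197500 after urethane, and 0 of 9 passed the pooled test between groups. Of all 13390 genes, 1.43% were called higher and 0.836% lower in that test. With scan day as a block 2 of the 9 were lower, Fabp1 (-1.19, limma adjusted p = 4.67e-05) and Krt79 (-0.58, limma adjusted p = 0.00213). In that fit 2.82% of all genes were called lower. Every label also describes the sample as lung tissue, although its source is given as lavage cells. Of the 22 member probe sets 21 were tested, the exception being Npas2 1421036_at, which exceeded the 40th percentile on 0 arrays.

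Arnt2, the partner subunit best known from neurons, was near the low end of the array in most control samples and well above it in every urethane sample. The probe set 1434028_at read 63.9 in control 6_13, 24.4 in control 14, 49.5 in control 33, 13 in control 35, 622 in control 36 and 19.4 in control 37. After urethane its signal ran from 375 through a median of 1089 to 2785, the last in urethane 31. Control 36 thus lay within the urethane range, the other 5 controls lay below every urethane array, and 8 of 11 urethane arrays exceeded control 36. The median signal was 29.5 times that of controls, and because only 2 of 6 controls exceeded the 40th percentile, against 11 of 11 urethane arrays, the size of this ratio is set by dim control values.

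The log2 difference of Arnt2 1434028_at was 3.76 (SE 0.50, n = 6 and 11), from 6.20 ± 1.62 (SD, n = 6) to 9.96 ± 0.85 (SD, n = 11), and it was 4.39 without control 36. Within scan day 1 the signals were 24.4 and 63.9 in controls and 375 to 956 after urethane, a log2 difference of 3.36. Within scan day 2 they were 13 to 622 and 1089 to 2785, a log2 difference of 4.22. The groups did not overlap on either day, as was so in 1 direction for 1.45% of all tested probe sets. Every urethane array of day 2 was above every urethane array of day 1. The other probe sets of the gene were dim: 1420669_at had a median of 32.3 in controls and 87.0 after urethane, with a log2 difference of 0.85 (SE 0.36), and 1420670_at had medians of 56.6 and 98.8, with 0.76 (SE 0.36). On both of these the control and urethane signals overlapped, and 1420670_at differed by -0.50 on day 1 and 1.5 on day 2. The 20th percentile signal of the arrays was 15.7 and 27.9 in day 1 controls and 9.49 to 13.4 after urethane. On day 2 it was 17.1 to 28.4 and 14.4 to 66.2, and its part in differences of dim probe sets was not tested. RNA of a mixed sample cannot tell more RNA per cell from more cells of a type that makes it.

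**Figure D1:**
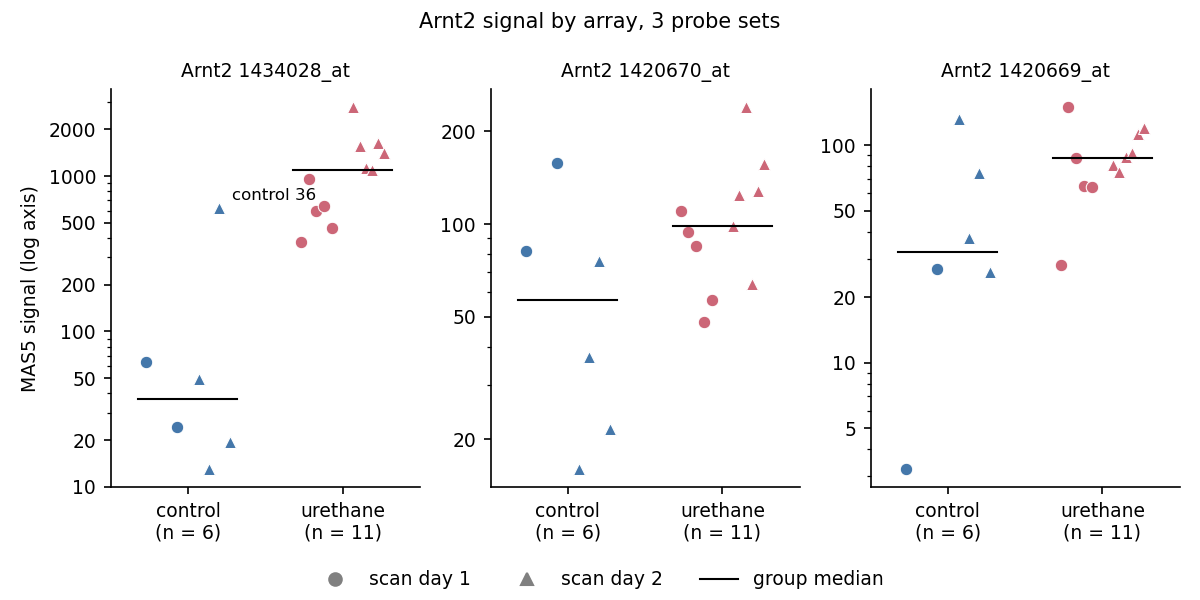
MAS5 signal (log axis) of the 3 Arnt2 probe sets on each of 6 control and 11 urethane arrays, with circles for scan day 1, triangles for scan day 2 and a line at the group median. For 1434028_at 5 controls sit between 13 and 63.9, control 36 sits at 622, and the urethane arrays sit between 375 and 2785.

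Epas1, which encodes the oxygen-regulated HIF-2alpha, was the only member whose RNA passed the pooled test, in which Arnt2 was not judged. Its probe set 1435436_at read 1194, 1045, 1937, 2359, 4659 and 1666 in controls 6_13, 14, 33, 35, 36 and 37. After urethane it ran from 2744 through a median of 6166 to 9682, with the lowest value in urethane 3 and the highest in urethane 31. Control 36 again lay inside the urethane range, while the other 5 controls lay below all 11 urethane arrays. The log2 signal rose from 10.89 ± 0.77 (SD, n = 6) to 12.35 ± 0.54 (SD, n = 11), a difference of 1.45 (SE 0.27, 95% interval 0.90 to 2.01, limma adjusted p = 0.00604), and the median signal was 3.42 times that of controls. The difference was larger than the SD within either group, but not than the range of log2 values within either group.

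The rise of Epas1 1435436_at passed on each scan day, where 2.83% (day 1) and 1.42% (day 2) of all tested probe sets were called higher. On day 1 the controls read 1045 and 1194 and the urethane arrays 2744 to 4581, a log2 difference of 1.71 (limma adjusted p = 0.000213). On day 2 the controls read 1666 to 4659 and the urethane arrays 6166 to 9682, a difference of 1.49 (limma adjusted p = 0.00194). The groups did not overlap on either day, as was true in 1 direction for 1.45% of all tested probe sets. With scan day as a block the difference was 1.57 (limma adjusted p = 3.97e-06), and without control 36 it was 1.71 (limma adjusted p = 0.000232).

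The second Epas1 probe set, 1449888_at, was dimmer. It ran from 72.0 through a median of 183 to 287 in controls and from 158 through 318 to 697 after urethane, so the groups overlapped, with 6 of 11 urethane arrays above all controls. Its log2 difference was 0.87 (SE 0.30), short of the threshold (limma adjusted p = 0.18). Within scan days the groups did not overlap, and with scan day as a block the difference was 1.0 and passed (limma adjusted p = 0.00219). Day 1 alone gave 1.14 (limma adjusted p = 0.0311) and day 2 alone 0.91 (limma adjusted p = 0.069).

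Over the 18 tested probe sets of members other than Arnt2, 1 was called higher (5.56%) and 0 lower, against 0.971% called higher and 0.606% called lower of all tested probe sets. The call was Epas1 1435436_at. With scan day as a block 2 were higher, both of Epas1, and 1 was lower, of Ahr, where 2.70% and 2.23% of all probe sets were called. Members share genes, so these counts are not independent.

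**Figure D2:**
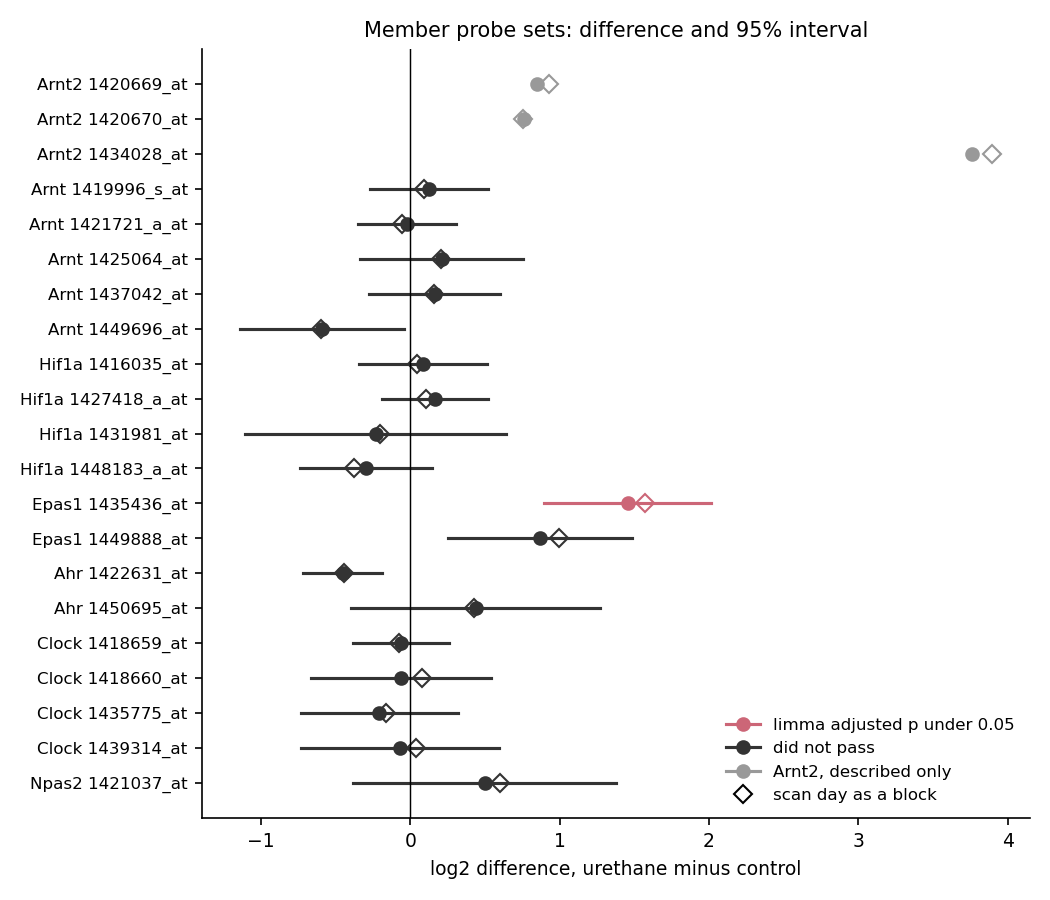
Log2 difference, urethane minus control, of the 21 tested member probe sets. Filled points are the pooled fit over 17 arrays, bars are its 95% intervals (none are drawn for Arnt2, which is described only) and open diamonds have scan day as a block. Epas1 1435436_at at 1.45 is the only coloured, passing point, and Arnt2 1434028_at lies farthest right at 3.76.

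The brightest probe sets of Arnt2 and Epas1 also rose and fell together within the urethane group, a comparison the choice of the genes did not use. The relation was not computed for their other probe sets. Across the 11 urethane arrays log2 Arnt2 1434028_at and log2 Epas1 1435436_at had a Pearson r of 0.947 (permutation p = 2e-05, adjusted p = 0.00012 over 6 pairs) and a Spearman rho of 0.945 (permutation p = 4e-05, adjusted p = 0.00024). Without urethane 3 and urethane 31, the arrays farthest from the Arnt2 median, r was 0.883 (n = 9). Both probe sets were higher in the urethane arrays of scan day 2 than in those of day 1. The permutations over the 11 arrays ignored scan day, so their p-values include this shift. Within the 6 urethane arrays of day 2, r was 0.917 (exact permutation p = 0.025) and rho was 0.771 (exact permutation p = 0.1). That subset still holds urethane 31, the highest array on both probe sets. The dimmer Epas1 probe set, 1449888_at, did not share this peak. It read 345 in urethane 31 and was highest, at 697, in urethane 36. Day 1, with 5 arrays, was under the minimum of 6 used here for a correlation, so its values are given instead. The Arnt2 and Epas1 signals there were 375 and 2744 in urethane 3, 461 and 3870 in urethane 9, 599 and 3192 in urethane 7, 638 and 4581 in urethane 8, and 956 and 4359 in urethane 5. The lowest array was the same for both probe sets, but the order of the others differed, with urethane 5 highest in Arnt2 and urethane 8 highest in Epas1. In controls the highest array for both probe sets was control 36, whose signals of 622 and 4659 lay beside those of urethane 8, 638 and 4581.

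**Figure D3:**
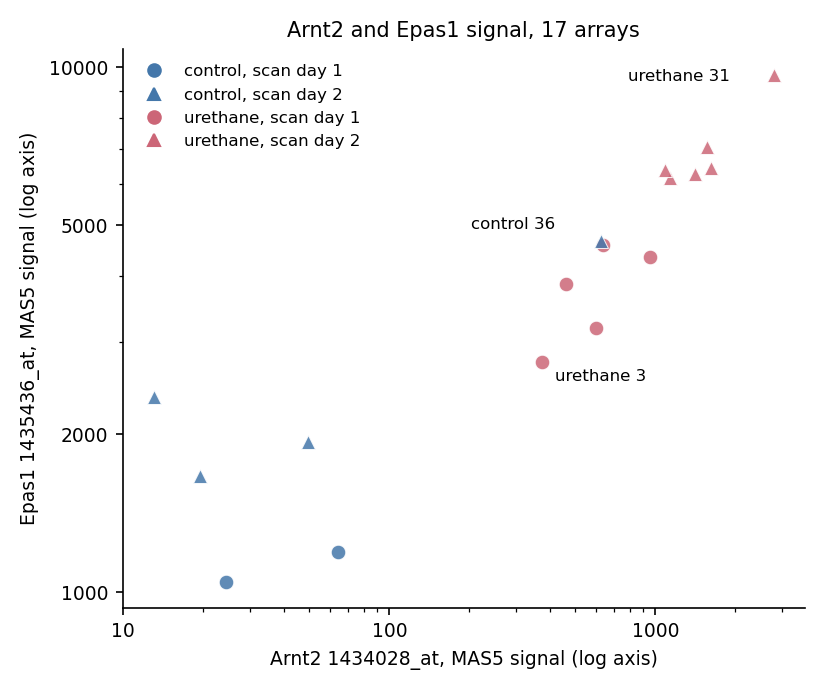
MAS5 signal of Arnt2 1434028_at (horizontal, log axis) and Epas1 1435436_at (vertical, log axis) on 17 arrays, blue for control and red for urethane, circles for scan day 1 and triangles for scan day 2. Control 36 lies on top of urethane 8, and urethane 31 is highest on both probe sets.

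The same relation was computed for the brightest tested probe set of each other member, again with permutations over all 11 urethane arrays that ignored scan day. Npas2 1421037_at had an r of 0.838 with Arnt2 (permutation, adjusted p = 0.0047) and a rho of 0.836 (adjusted p = 0.0067), but within day 2 r was 0.566 (exact permutation p = 0.25). This probe set is dim, above the 40th percentile on 1 of 6 control and 6 of 11 urethane arrays. Hif1a 1427418_a_at had an r of -0.66 (permutation, adjusted p = 0.045), while rho was -0.52 (adjusted p = 0.22) and r within day 2 was -0.73 (exact permutation p = 0.13). For Arnt, Ahr and Clock r was -0.16, -0.26 and -0.15, with permutation adjusted p of 0.66, 0.65 and 0.66.

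Values of other cell types moved with the groups, and their part in the Arnt2 and Epas1 results was not tested. Of all 13390 genes, 1.43% were called higher and 0.836% lower in the pooled fit, and 3.78% and 2.82% with scan day as a block. Of 9 airway epithelium markers 4 fell and 0 rose, and their summed signal was 19070 to 42280 in controls and 9586 to 15650 after urethane. Of 6 alveolar type 2 markers 1 fell (sums of 5121 to 9465 and 4436 to 6970). In endothelium, a known site of Epas1, 0 of 3 tested markers passed, Pecam1 never exceeded the 40th percentile, and the sums over all 7 were 997 to 2521 and 1526 to 3254. For T cells 1 of 5 rose (sums of 8676 to 14310 and 6511 to 12200). Cd2 was the brightest of these, with medians of 11090 in controls and 5858 after urethane and a log2 difference of -0.78. Control medians of Cd3d, Cd3e, Cd3g and Il7r were 44.5, 89.8, 206 and 668, and their log2 differences 1.84, 0.69, 0.85 and 1.67. Only Il7r passed, and the T cell sum mainly follows Cd2. For neutrophils 1 of 5 rose (2976 to 9026 and 4483 to 51510), and for monocytes and interstitial macrophages 1 of 4 fell (1108 to 14320 and 2601 to 6700). In the other lists, of 3 fibroblast and smooth muscle markers, 2 B cell, 2 NK cell, 2 erythroid and 1 neuronal marker tested 0 passed, and Col1a1 never exceeded the 40th percentile. When scan day was a block, 5 of 9 airway epithelium markers were lower, and of 5 T cell markers 3 were higher (Cd3d at 2.04, Il7r at 1.84 and Cd3g at 1.07, limma adjusted p = 0.000351, 2.69e-05 and 0.0186) and Cd2 was lower (-0.90, limma adjusted p = 0.00225). The endothelial marker Cdh5 was then higher as well (1.56, limma adjusted p = 0.00538), 1 neutrophil marker was higher, and 1 alveolar type 2 and 1 monocyte marker were lower.

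Arnt, the widely expressed partner of HIF and AHR, did not pass on any of its 5 probe sets. Its brightest, 1437042_at, ran from 397 through 636 to 884 in controls and from 448 through 668 to 1036 after urethane, so the groups overlapped widely. The log2 difference was 0.16 (SE 0.21, 95% interval -0.27 to 0.60, limma adjusted p = 0.836). The other 4 differed by -0.59 to 0.21 (limma adjusted p from 0.353 to 0.974). The value of -0.59 came from 1449696_at, a dim probe set with medians of 142 and 83.4. The 95% intervals of the other 4 spanned 0 and reached at most 0.76.

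Hif1a, the more broadly expressed oxygen-regulated subunit, also did not pass. Its probe set 1427418_a_at ran from 3861 through 5802 to 8875 in controls and from 3927 through 6500 to 8768 after urethane. Both groups thus covered almost the same range, and the log2 difference was 0.16 (SE 0.17, 95% interval -0.19 to 0.52, limma adjusted p = 0.777). The upper end of this interval lies below the lower end of 0.90 for Epas1 1435436_at, but the difference between the genes was not tested. The other Hif1a probe sets differed by -0.30 (1448183_a_at), -0.23 (1431981_at) and 0.08 (1416035_at), with limma adjusted p of 0.636, 0.893 and 0.923. The scan days differed in sign for 1427418_a_at, at -0.17 on day 1 and 0.27 on day 2 (limma adjusted p = 0.463 and 0.496). They also did for 1448183_a_at, at 0.09 on day 1 and -0.66 on day 2 (limma adjusted p = 0.72 and 0.0774).

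Ahr, the receptor for aromatic hydrocarbons and tryptophan metabolites, had lower values after urethane, short of the threshold in the pooled fit. The probe set 1422631_at read 792, 554, 1064, 930, 918 and 718 in controls 6_13, 14, 33, 35, 36 and 37, and ran from 491 through 598 to 703 after urethane. Every urethane value was lower than the mean of the controls, and control 14 was the control inside their range. The log2 difference was -0.45 (SE 0.13, 95% interval -0.72 to -0.19, limma adjusted p = 0.0796). A block for scan day gave -0.44, which passed (limma adjusted p = 0.0394), and without control 14 it was -0.56 and passed (limma adjusted p = 0.0233).

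Taken by scan day, Ahr 1422631_at was called lower on day 2 and not on day 1. On day 2 controls read 718 to 1064 and urethane arrays 491 to 663, a log2 difference of -0.64 (limma adjusted p = 0.0337), where 1.31% of all probe sets were called lower. On day 1 the 2 controls, 554 and 792, enclosed most of the urethane arrays, 529 to 703, and the difference was -0.12 (limma adjusted p = 0.687). By the interaction of group with day these differences were not told apart (limma adjusted p = 0.249), and of all tested probe sets 0.0169% were. When arrays were scaled to a common median instead, which moved the median log2 difference of all genes from -0.03 to 0.18, the Ahr value was -0.24 (limma adjusted p = 0.94). The second probe set, 1450695_at, was dim and differed by 0.44 (limma adjusted p = 0.737).

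**Figure D4:**
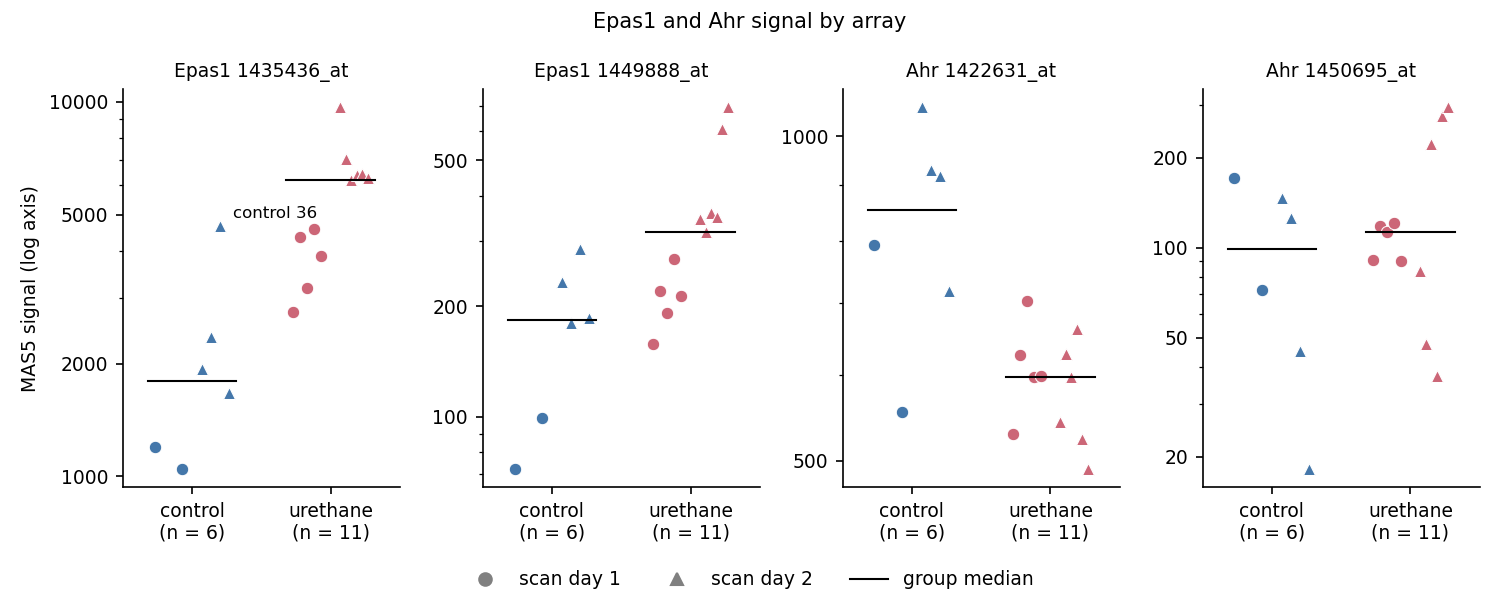
MAS5 signal (log axes, each with its own scale) of the 2 Epas1 and 2 Ahr probe sets on 6 control and 11 urethane arrays, with circles for scan day 1, triangles for scan day 2 and a line at the group median. Epas1 1435436_at has medians of 1801 and 6166, and Ahr 1422631_at has medians of 855 and 598.

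Clock, which drives the circadian loop with BMAL1, did not pass on any of its 4 probe sets. The brightest, 1418659_at, ran from 682 through 771 to 1163 in controls and from 555 through 866 to 1031 after urethane, and differed by -0.06 (SE 0.15, 95% interval -0.38 to 0.26, limma adjusted p = 0.921). The other 3 differed by -0.21 to -0.06 (limma adjusted p from 0.819 to 0.966). Npas2, which can take the place of CLOCK, was near the low end. Its probe set 1421037_at ran from 11.9 through 36.8 to 100 in controls and from 4.09 through 59.9 to 154 after urethane, with overlap. The difference was 0.50 (SE 0.43, limma adjusted p = 0.709), with -0.53 on day 1 and 1.28 on day 2. The interaction with day had a limma adjusted p of 0.203, and the lowest among members other than Arnt2 was 0.178, for Hif1a 1448183_a_at.

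Genes around these factors were taken from lists, each gene by its brightest single-gene probe set, for which 1.43% of 13390 genes were called higher and 0.836% lower. Of the 12 other PAS proteins tested 0 passed, with a median log2 difference of -0.06 beside -0.03 for all genes. The member of smallest p, the circadian repressor Per1, had medians of 879 and 640 and differed by -0.48 (limma adjusted p = 0.549). In the list of oxygen sensing and HIF regulation 0 of 15 rose, 1 fell (6.67%) and 14 did not pass, with a median of -0.16. The gene that fell was Cited2, which encodes a protein that competes with HIF for its coactivators.

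Cited2 1452207_at ran from 2642 through 2964 to 3329 in controls and from 1648 through 2182 to 2730 after urethane. All but 1 urethane array lay below the lowest control. The log2 difference was -0.50 (SE 0.10, limma adjusted p = 0.0128), with -0.40 on day 1 and -0.59 on day 2. A second probe set of the gene, 1421267_a_at, differed by -0.42 (limma adjusted p = 0.383). With median scaling the difference of 1452207_at was -0.28 and did not pass (limma adjusted p = 0.931). In the fit with scan day as a block, where 3.78% of genes were called higher and 2.82% lower, Siah2, an E3 ubiquitin ligase picked out because of its value, was also lower (limma adjusted p = 0.0213).

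Among 28 tested HIF targets 2 rose (7.14%), 2 fell (7.14%) and 24 did not pass, and their median was 0.06. Hk2, a hexokinase, which phosphorylates glucose, ran from 657 through 890 to 1507 in controls and from 1267 through 1474 to 1765 after urethane. The groups overlapped, with 4 of 11 urethane arrays above all controls. It rose by 0.69 (SE 0.13, limma adjusted p = 0.00646), with 1.0 on day 1 and 0.56 on day 2. Tfrc, the transferrin receptor that takes up iron, had medians of 389 and 758 and rose by 0.95 (SE 0.23, limma adjusted p = 0.0397). Its 3 probe sets gave 0.49 to 0.95.

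Ndrg1, a gene commonly used as a mark of hypoxia, moved the other way. It ran from 648 through 774 to 1088 in controls and from 275 through 379 to 693 after urethane, and 10 of 11 urethane arrays lay below all controls. It fell by 1.03 (SE 0.16, limma adjusted p = 0.00126), its 5 probe sets gave -1.13 to -0.66, and the difference was -0.85 on day 1 and -1.09 on day 2. Flt1, a receptor for vascular endothelial growth factor, ran from 1191 through 1388 to 1689 in controls and from 279 through 672 to 1294 after urethane. It fell by 1.0 (SE 0.23, limma adjusted p = 0.0299), with -0.50 on day 1 and -1.40 on day 2, and its 4 probe sets gave -1.0 to -0.50. Other targets that HIF raises in many cells, among them the glycolytic genes Pgk1 and Ldha, were not called (limma adjusted p = 0.854 and 0.893).

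The calls of Tfrc and Flt1 changed when single arrays were left out. Tfrc no longer passed when control 6_13, 14, 33 or 35, or urethane 8, 31, 32, 33, 34, 35 or 36 was left out (limma adjusted p up to 0.116). Flt1 no longer passed without control 6_13, 14, 33, 35 or 37, or urethane 32 or 35 (limma adjusted p up to 0.0958). Hk2 and Ndrg1 passed whichever array was left out. With arrays scaled to a common median the values were 0.91 for Hk2, -0.82 for Ndrg1 and -0.77 for Flt1, and none of these passed. All 4 targets passed when scan day was a block, and Ddit4, a stress-induced inhibitor of mTOR picked out because of its value, was then higher too (limma adjusted p = 0.00885).

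Of 5 tested genes among AHR chaperones and targets 0 passed, with a median of -0.11. Tiparp, a target and inhibitor of AHR, had the smallest p, with medians of 1829 and 2198 and a difference of 0.23 (limma adjusted p = 0.317), and its 3 probe sets gave -0.01 to 0.27. The classical target Cyp1a1 differed by -0.85 (limma adjusted p = 0.434). Of 18 circadian genes 0 passed (median 0.02). The one of smallest p was Csnk1e, a kinase that marks the PER proteins for degradation, at -0.36 (limma adjusted p = 0.159), and its 3 probe sets disagreed in sign, from -0.36 to 0.36. Of 4 neural genes that lie downstream of ARNT2 with SIM1 or NPAS4 0 passed (median 0.06), and Bdnf, a neuronal growth factor, differed by 0.17 (limma adjusted p = 0.928).

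**Figure D5:**
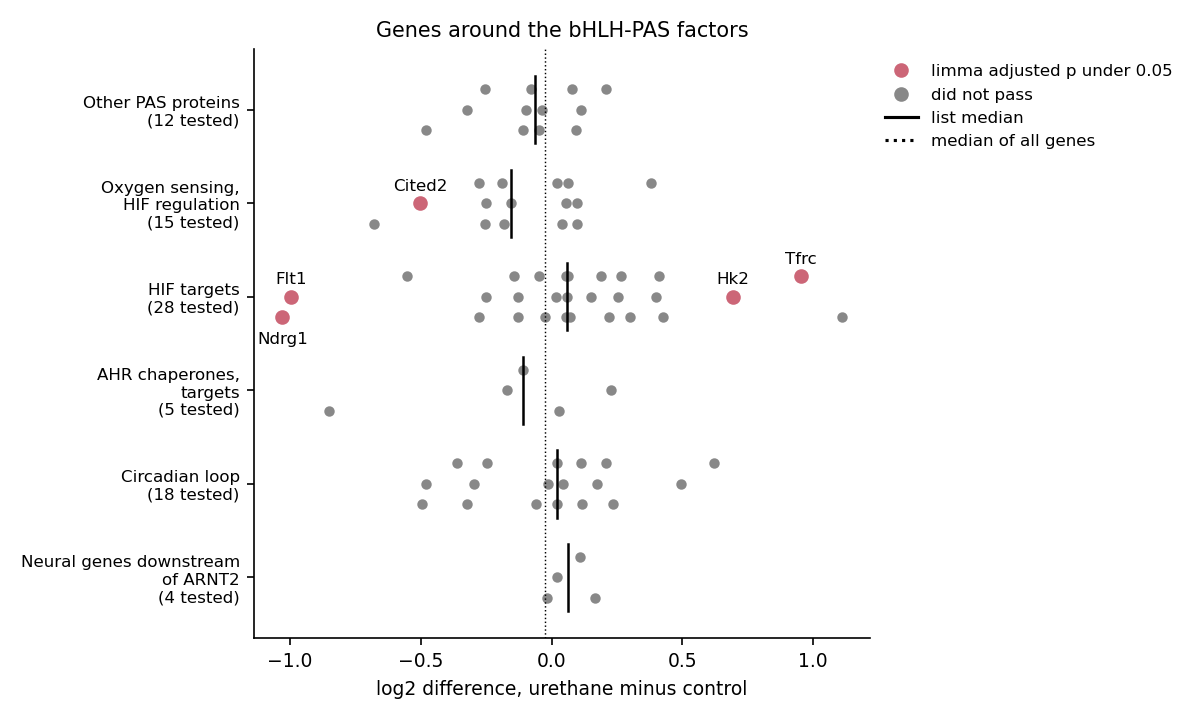
Log2 difference, urethane minus control, of every tested gene of 6 lists, 1 point a gene, with a bar at the list median and a dotted line at the median of all genes (-0.03). Coloured points passed: Cited2 among regulators, and Hk2, Tfrc, Ndrg1 and Flt1 among HIF targets.

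In the 250-base windows, counted by gene over all its windows, 26 of 27 HIF targets held a HIF core (96.3%). So did 8 of 12 genes of oxygen sensing and HIF regulation (66.7%), 5 of 7 AHR genes (71.4%) and 13 of 15 circadian genes (86.7%). The other lists were also above the 41.5% of all 27025 genes with a window, with 4 of 5 neural genes (80.0%) and 7 of 11 other PAS proteins (63.6%). A gene with more windows has more places for a match. Targets that rose and targets that fell both had matches, as the printed windows of Hk2 and Flt1 show. A match says only that the letters are there.

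Genes whose array-to-array pattern was most like that of Arnt2 1434028_at were found over all 17 arrays after the mean of each group was taken off. The 5 highest of 13389 were Anxa3, an annexin (r = 0.917), Rhoc, a small GTPase (0.912), Dram1, an autophagy regulator (0.911), Rtp4, an interferon-induced chaperone (0.905), and Ptgir, the prostacyclin receptor (0.893). Without control 36, the array farthest from its group in Arnt2, these r were 0.846, 0.839, 0.803, 0.824 and 0.759. Within the 11 urethane arrays they were 0.879, 0.864, 0.880, 0.921 and 0.835. Epas1 ranked 46 with r = 0.802 (0.675 without control 36) and Npas2 ranked 104 with 0.752. Arnt, Ahr, Clock and Hif1a had r of 0.07, 0.13, -0.11 and -0.35. The arrays share scan days, so these values are descriptions.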

How the data were processed

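Bronchoalveolar lavage cells were profiled on 17 single-colour Affymetrix Mouse430_2 arrays. The deposited values are probe set intensity signals on a linear scale, made by the authors with MAS5 (version not stated), per the submitters' processing notes. Their scaling was kept. Scan day and chip lot were read from the scan files. Probe sets were named from the platform annotation, and 34945 had 1 symbol, 932 several and 9160 none; only the first were used by name.

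A pseudocount of 17.1, the median of the arrays' 20th percentiles, was added to each signal before log2. The 29550 probe sets above the 40th percentile of their array on at least 6 arrays were fitted in limma 3.58.1 under R 4.3.3 (lmFit, eBayes with a trend, two-sided) with Benjamini-Hochberg adjustment. Relations used 100000 permutations, exact within days, in scipy 1.17.1 under Python 3.11.15, and figures used matplotlib 3.10.9. In a simulation of the urethane against control comparison with 29550 probe sets, 23% of those changed 1.5-fold and 51% of those changed 2-fold were recovered, and 2.63% of 76 calls were false. These folds were added after the pseudocount, so they are larger in signal for dim probe sets. The simulated noise was normal and independent, without a scan day effect, so the rates may not hold for these arrays.

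The members and the gene lists were chosen with earlier results of these data known. Named were all members, up to 3 genes of each list past the threshold in each direction or its gene of smallest p, and the 5 genes most like Arnt2; other named genes were chosen after their values were seen. Numbers 33, 35 and 36 occur in both groups, but same-numbered arrays did not deviate together (r = 0.05, -0.02 and -0.000116), so they were not paired. The results were recomputed under 35 alternatives: 17 left out 1 array, 16 others were planned and 2 were added after seeing the data. No arrays held identical values (highest correlation 0.969). Sequences and gene positions are from RefSeq tables of GRCm38.p6.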

Additional observations from a re-analysis of the deposited data

Results flagged for a closer look

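In 2 of 21 control groups tested, 1 per probe set, a single array stood apart from the other 5; chance alone gives this in about 1 of 20 groups. For Arnt2 1434028_at, control 36 had a log2 value of 9.32 (signal 622) and the nearest other control 6.34 (signal 63.9), a gap of 0.676 of the whole range, above Dixon's critical value. The same array was the highest control for both Epas1 probe sets. For Hif1a 1448183_a_at, control 37 had a log2 value of 9.75 (signal 844) and the nearest other control 10.51 (signal 1446), a gap of 0.822 of the range.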

How the results depend on the processing

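Epas1 1435436_at passed in all 35 alternatives (log2 difference 1.18 to 1.76, limma adjusted p from 1.1e-08 to 0.0355), and the Arnt2 1434028_at difference ran from 2.98 to 4.43. Epas1 1449888_at passed in 5 of 34 and Ahr 1422631_at in 6 of 35. The count of other member probe sets called, 1 in the pooled fit, was 2 with a 60th percentile filter, 3 with scan day as a block, 2 on day 1, 2 on day 2, 2 with 1 probe set per gene, 2 without control 36 with scan day as a block and 2 without the 3 arrays of highest 20th percentile signal with scan day as a block; leaving out 1 array gave 1 to 2. All probe sets called, 466, became 194 with median scaling (178 higher and 16 lower, 91.75% higher against 61.59%), 1456 with scan day as a block, 1487 on day 1, 808 on day 2, 227 without a variance trend, 1730 and 1615 in the 2 added settings, and 224 to 772 without 1 array. With RNA quality ratios as covariates 71.8% were higher. The list genes called, 5, became 2 with median scaling, 2 without a trend, 9 and 8 in the added settings, and 3 to 8 without 1 array. With the replicate block over the shared numbers, which do not pair the arrays, 8 member probe sets, 6023 of all and 20 list genes were called.

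Directions reversed only in values past no threshold in the pooled fit. Some dimmer probe sets of members reversed often: Clock 1418660_at in 13 of 35 alternatives, Clock 1439314_at in 8, Arnt 1421721_a_at in 7 and Hif1a 1416035_at in 6. Clock 1439314_at was 1.08 with the replicate block, past the threshold there (limma adjusted p = 0.0117). The reversals given next are mainly those of the brightest probe sets. Day 1 gave -0.0214 for Arnt 1437042_at, -0.17 for Hif1a 1427418_a_at, -0.0786 for Ahr 1450695_at, -0.53 for Npas2 1421037_at and -0.16 for Bdnf. Clock 1418659_at was 0.15 with median scaling, 0.0391 on day 2, 0.16 with the replicate block and -0.121 to 0.0301 without 1 array, reversed without control 6_13. RNA quality covariates gave -0.17 for Arnt 1437042_at, -0.10 for Hif1a 1427418_a_at and -0.26 for Bdnf. Bdnf was -0.0803 without the 3 arrays of highest 20th percentile, -0.18 so with scan day as a block, -0.0106 to 0.381 without 1 array, reversed without control 36, and -0.00437 without control 36 with the block, and Ahr 1450695_at was -0.18 without the 3 arrays with the block. Within day 2 the relation with Arnt2 no longer passed for Hif1a (r = -0.73) and Npas2 (r = 0.57). The causes were not tested. Signals near the low end limit Npas2, Bdnf and the dim Arnt2 probe sets.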
